A study of Homo sapiens with 20 samples.

Results

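RUNX1 binding was described at the genes of 8 receptors for myeloid and erythroid cytokines: CSF1R, CSF2RA, CSF2RB, CSF3R, IL3RA, FLT3, KIT and EPOR. All peaks within 50 kb of the RefSeq span of one of these genes (GRCh38) were taken. This gave 24 of the 26642 peaks of the deposited table, and 2 of them lay within reach of both CSF2RA and IL3RA. These 2 genes have copies on X and Y, and the span on X was used. The 4 peaks near the Y copies are not among the 24 and are described separately. The rule itself uses gene positions and no measured value. Chromatin immunoprecipitation followed by sequencing (ChIP-seq) with an antibody against RUNX1 was performed in THP-1 cells, a human line established from acute monocytic leukemia. The cells carried a cassette, switched on by doxycycline for 72 h, that expressed either a short hairpin RNA against the transcription factor PU.1 (knockdown, n = 6 libraries) or a scramble hairpin (control, n = 6 libraries). Both groups were grown in RPMI with 10% FCS and both received doxycycline, and the sample labels name no difference between them but the knockdown. The study's PU.1 blot labels the control and knockdown cells as separate THP-1 derivatives. An effect of the hairpin therefore cannot be told apart from any other difference between these derivatives. The libraries were made in 2 batches, the first with 3 control and 2 knockdown libraries, the second with 3 and 4. The replicates were, per the study, cell line replicates with independent immunoprecipitations. All tests therefore measure the spread between such replicates and not between donors or between independently derived lines. The 8 further samples, made with an unspecific IgG antibody, were not analysed here.

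Cytokine receptors decide which growth signals a blood progenitor can receive. CSF1R, FLT3 and KIT are receptor tyrosine kinases, which bind M-CSF or IL-34, FLT3 ligand, and stem cell factor. CSF3R and EPOR are single-chain cytokine receptors for G-CSF and erythropoietin, and CSF2RA and IL3RA are the ligand-binding chains for GM-CSF and IL-3 that share the signalling chain encoded by CSF2RB. RUNX1 and PU.1 are transcription factors of blood cells that bind different short DNA words and can occupy the same regulatory elements, and CSF1R is a textbook target of both in monocytes and macrophages.

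The sequences just before the receptors' start sites were searched for the core words of both factors, TGTGGT or TGCGGT for RUNX proteins and GAGGAA for ETS proteins such as PU.1, on both strands. A RefSeq promoter window was found for 7 of the 8 genes, and of all 34961 windows of the table, 16.3% held a RUNX word and 23.6% an ETS word in the 250 bases before the start. Of the receptor windows, those before the downstream start of CSF1R and before FLT3 held both kinds of word. They are shown because the opposing peaks lay within 50 kb of CSF1R and the FLT3 window lay under a measured peak. The sequences are those of RefSeq (GRCh38.p14), read 5′ to 3′ on the strand of the gene, which is the minus strand for both, and the capitals mark the words. The CSF1R sequence covers chromosome 5, 150086555 to 150086804, and no peak of the table near CSF1R covered it. The FLT3 sequence covers chromosome 13, 28100577 to 28100826, within the peak from 28099960 to 28101390.
CSF1R, downstream start: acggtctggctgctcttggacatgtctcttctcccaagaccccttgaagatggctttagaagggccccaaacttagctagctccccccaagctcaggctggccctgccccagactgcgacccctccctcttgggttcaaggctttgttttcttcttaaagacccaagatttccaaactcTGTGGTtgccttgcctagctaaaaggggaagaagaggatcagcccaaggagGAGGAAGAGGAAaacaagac
FLT3: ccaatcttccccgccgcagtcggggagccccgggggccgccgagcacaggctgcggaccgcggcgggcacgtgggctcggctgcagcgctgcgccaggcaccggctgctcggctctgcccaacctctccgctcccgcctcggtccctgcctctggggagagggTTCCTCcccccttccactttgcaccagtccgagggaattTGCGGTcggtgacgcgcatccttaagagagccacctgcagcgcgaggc

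In the CSF1R sequence, TGTGGT lay 71 to 66 bases before the start, and 2 adjoining copies of GAGGAA lay 20 to 15 and 14 to 9 bases before it. In the FLT3 sequence, TGCGGT lay 48 to 43 bases before the start, and GAGGAA was read on the opposite strand, as TTCCTC, 87 to 82 bases before it. The window before CSF2RA held 2 copies of GAGGAA and 1 of the 2 windows of CSF3R held 1 copy, with no RUNX word in either. The windows before KIT, EPOR, IL3RA, the upstream start of CSF1R and the other start of CSF3R held none of these words. These matches describe the letters of the windows and were not measured as binding sites.

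The depth of each library was its number of reads inside peaks, which ranged from 630247 to 1199004 in the control and from 938745 to 1719840 in the knockdown libraries. The median peak held 18 to 34 reads per control library and 26 to 48 per knockdown library, so single peaks carried considerable counting error. The part that the deeper knockdown libraries have in the results was not tested beyond the other scalings of the libraries. Values below are normalised counts, that is reads in a peak divided by the size factor of the library. This scaling sets the typical peak to no change (median log2 fold change over all peaks -0.02), and a rise or fall of RUNX1 binding at all peaks together would not appear in it. The peaks had been called on these same libraries, and the assay measured no transcript or protein level, of PU.1 or of the receptors.

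Within 50 kb of the receptor genes, 7 RUNX1 peaks were lost and 1 was gained after PU.1 knockdown. Whether losses outnumbered gains beyond chance was not tested. Of the 24 peaks, 8 (33.3%) passed the threshold of DESeq2 with batch as a covariate, that is an adjusted p under 0.05 and a fold change over 1.1. Over all peaks tested, 42.0% passed it, so the share at the receptors lay below the background. Among them were 1 gained peak, where 21.3% of all peaks were gained, and 7 lost peaks, where 20.7% of all peaks were lost. The median log2 fold change of the 24 peaks was -0.0034. The gain lay 46068 bp before CSF1R, and the start nearest to it was that of PDGFRB. The losses lay inside CSF1R (1), inside FLT3 (2) and in the shared region of CSF2RA and IL3RA (2). Further losses lay next to CSF3R (1), over the promoter window of MRPS15, and next to EPOR (1), over that of SWSAP1. The loss next to CSF3R and 1 of the 2 in FLT3 did not pass under all alternative settings. No peak passed the threshold near CSF2RB or KIT.

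**Figure D1:**
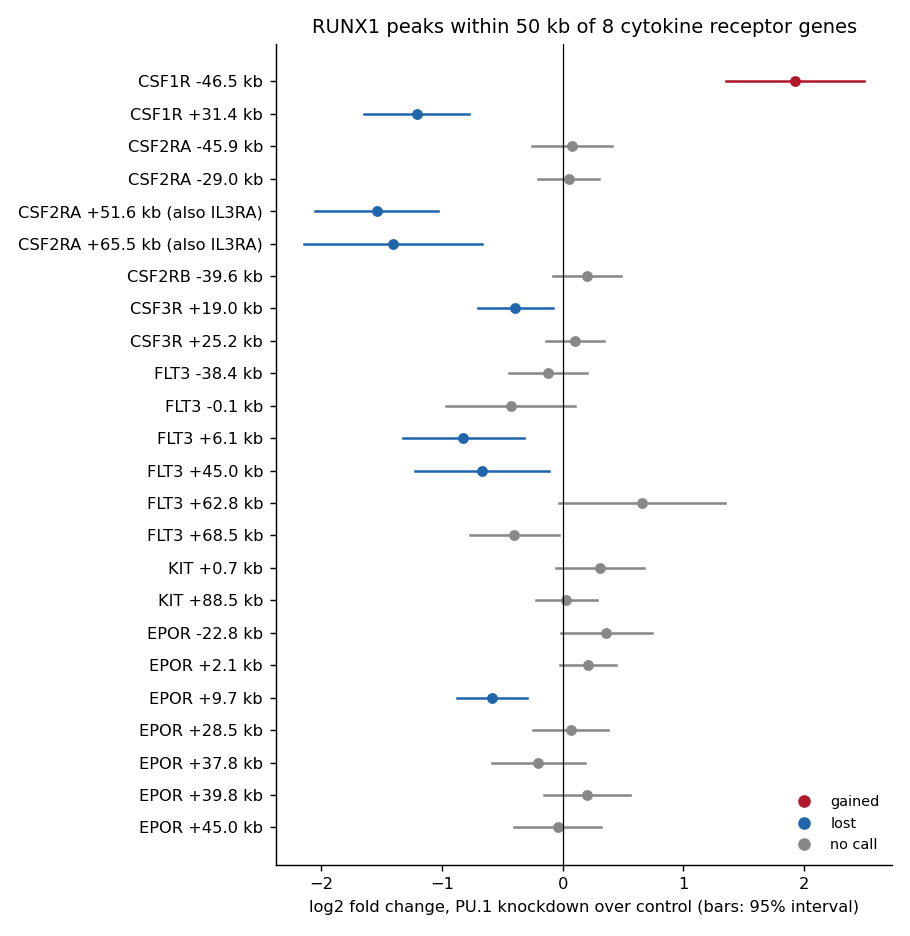
Log2 fold change of RUNX1 signal, PU.1 knockdown over control, on the horizontal axis for each of the 24 peaks, with 95% intervals from DESeq2 as bars. Names give the distance of the peak's middle from the outermost start of the gene (minus: before the start, and for CSF2RB, which has no strand here, from its lower coordinate), and the CSF1R peak at -46.5 kb stood at 1.93 while the lost peaks ran from -0.39 to -1.54.

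CSF1R, the M-CSF receptor on which monocytes and macrophages depend, had 2 peaks, and they moved in opposite directions. The peak inside the gene (chromosome 5, 150081579 to 150082292) lay 4262 bp from the downstream of the 2 RefSeq starts of CSF1R. Its normalised count ranged from 28.8 to 45.1 in the control libraries with a median of 39.4, and from 8.31 to 19.1 in the knockdown libraries with a median of 16.9. Every knockdown library lay below every control library, and the highest knockdown and the lowest control library were separated by more than the SD of either group. The mean fell from 38.1 ± 5.47 to 16 ± 3.90 (SD, n = 6 each), a log2 fold change of -1.21 with an SE of 0.22 (DESeq2 adjusted p 5.15e-07).

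The other CSF1R peak (chromosome 5, 150159433 to 150160338) lay 46068 bp before the outermost start of CSF1R and overlapped no annotated gene. The start nearest to it, at a distance of 3588 bp, belonged to PDGFRB, a receptor tyrosine kinase of mesenchymal cells. Its normalised count ranged from 6.51 to 12.6 in the control libraries with a median of 8.44, and from 26.1 to 44.7 in the knockdown libraries with a median of 32.3. Here all knockdown libraries lay above all control libraries. The mean rose from 8.87 ± 2.05 to 33.4 ± 7.67 (SD, n = 6 each), which was a 3.80-fold difference (1.93 ± 0.29 on the log2 scale, SE, DESeq2 adjusted p 8.96e-10). The control values rested on 5 to 12 reads per library.

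Set against each other within a library, the gained CSF1R peak held less than the lost one in all control libraries and more in all knockdown libraries. The log2 ratio of the gained over the lost peak ran from -2.53 to -1.47 in the control and from 0.47 to 1.60 in the knockdown. This is a description, since the pair was set together because it opposed. The sum of both peaks was 47.0 ± 5.59 in the control and 49.5 ± 9.82 in the knockdown (SD, n = 6 each), and the ranges of the sum overlapped. No other receptor gene had both a gained and a lost peak.

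**Figure D2:**
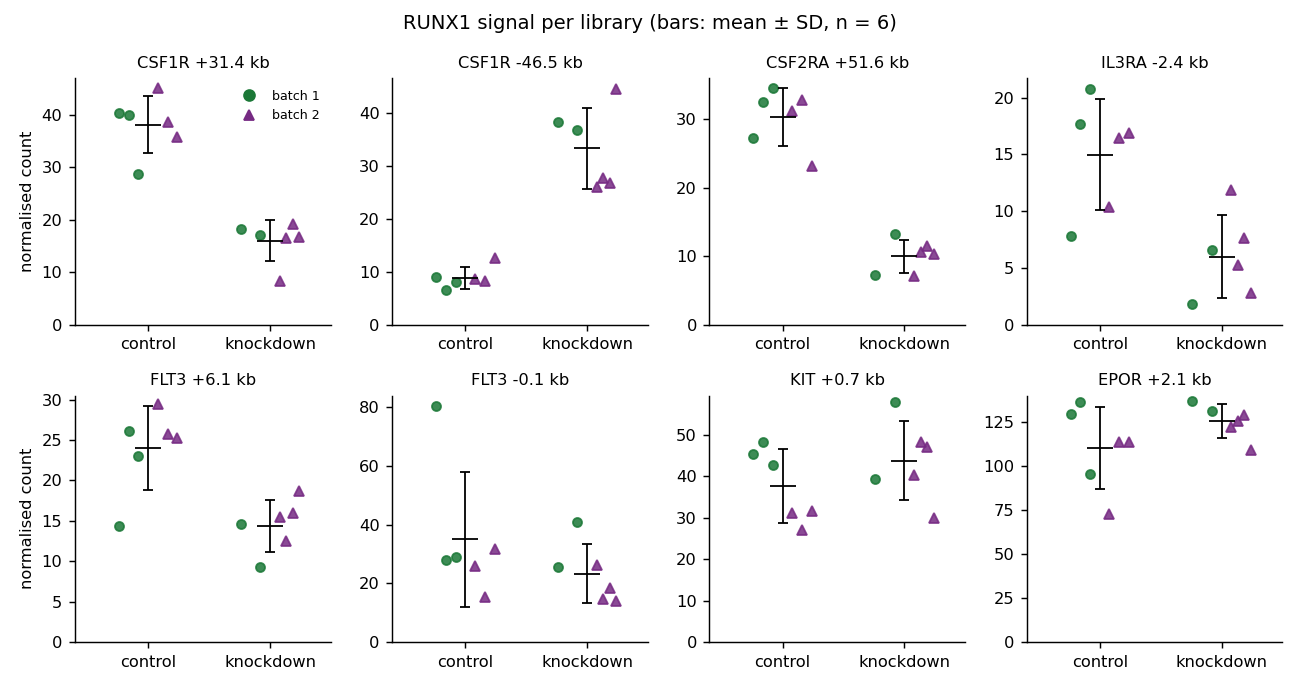
Normalised RUNX1 count (vertical axis, from 0) in each library at 8 peaks, named by gene and by the distance of the peak's middle from the outermost gene start. Circles are batch 1, triangles batch 2 and black bars the mean ± SD of 6 libraries, and the groups stood apart at both CSF1R peaks and at CSF2RA +51.6 kb but overlapped at the other 5.

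CSF2RA and IL3RA encode the alpha chains of the GM-CSF and IL-3 receptors and are neighbours on the X chromosome, in the pseudoautosomal region that X and Y share. Of the 4 peaks near CSF2RA, the 2 upstream of it showed no call and the 2 at its far end, towards IL3RA, were lost. The peak inside CSF2RA (chromosome X, 1319990 to 1320831) ranged from 23.2 to 34.6 in the control libraries with a median of 31.9, and from 7.13 to 13.2 in the knockdown libraries with a median of 10.4. The groups did not overlap, and no knockdown library had more than 20 reads there. The mean fell from 30.3 ± 4.25 to 9.98 ± 2.37 (SD, n = 6 each), a 2.91-fold lower value (-1.54 ± 0.26 on the log2 scale, SE, DESeq2 adjusted p 4.19e-08).

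The other lost peak (chromosome X, 1334099 to 1334592) lay between the genes, 2193 bp before the start of IL3RA, and was the nearest peak to it. It ranged from 7.80 to 20.7 in the control with a median of 16.6, and from 1.83 to 11.9 in the knockdown with a median of 5.93. These ranges overlapped, and the peak rested on 6 to 19 reads per control library and 2 to 12 per knockdown library. The log2 fold change was -1.40 with an SE of 0.38 (DESeq2 adjusted p 0.000889). No peak lay inside IL3RA.

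The upstream peaks of CSF2RA were not called. The peak nearest to its start, at a distance of 28504 bp (chromosome X, 1239319 to 1240310), held the highest level per length of the 24 peaks, with 110.9 normalised counts per kb in the control and 117.9 in the knockdown. The lost peak inside CSF2RA held 36.0 and 11.9 per kb. The nearest peak averaged 110.0 ± 22.1 in the control and 117.0 ± 15.3 in the knockdown (SD, n = 6 each), with a log2 fold change of 0.05 and a 95% interval from -0.20 to 0.30 (DESeq2 adjusted p 0.783). The peak further upstream had a log2 fold change of 0.08 (adjusted p 0.746).

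Because X and Y carry the same sequence here, a read can be assigned to either copy, and the table listed peaks on both chromosomes. At the CSF2RA and IL3RA region it held 4 peaks on Y, of which 3 overlapped the coordinates of an X peak. The Y copy of the peak inside CSF2RA (1319995 to 1320632) averaged 22.2 ± 3.21 in the control and 9.01 ± 4.71 in the knockdown, and its log2 fold change was -1.30 ± 0.31 (SE, DESeq2 adjusted p 0.000132). With the reads of both copies summed, that peak averaged 52.5 ± 6.77 in the control and 19.0 ± 6.12 in the knockdown (SD, n = 6 each), a log2 fold change of -1.43 with an SE of 0.21 (DESeq2 adjusted p 1.49e-10). The sums of the upstream peaks changed by 0.09 and 0.10 on the log2 scale and were not called. The peak 2193 bp before IL3RA had no Y peak in the table, and the Y peak at 1249038 to 1250157 had no X peak (log2 fold change 0.50, adjusted p 0.0622).

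**Figure D3:**
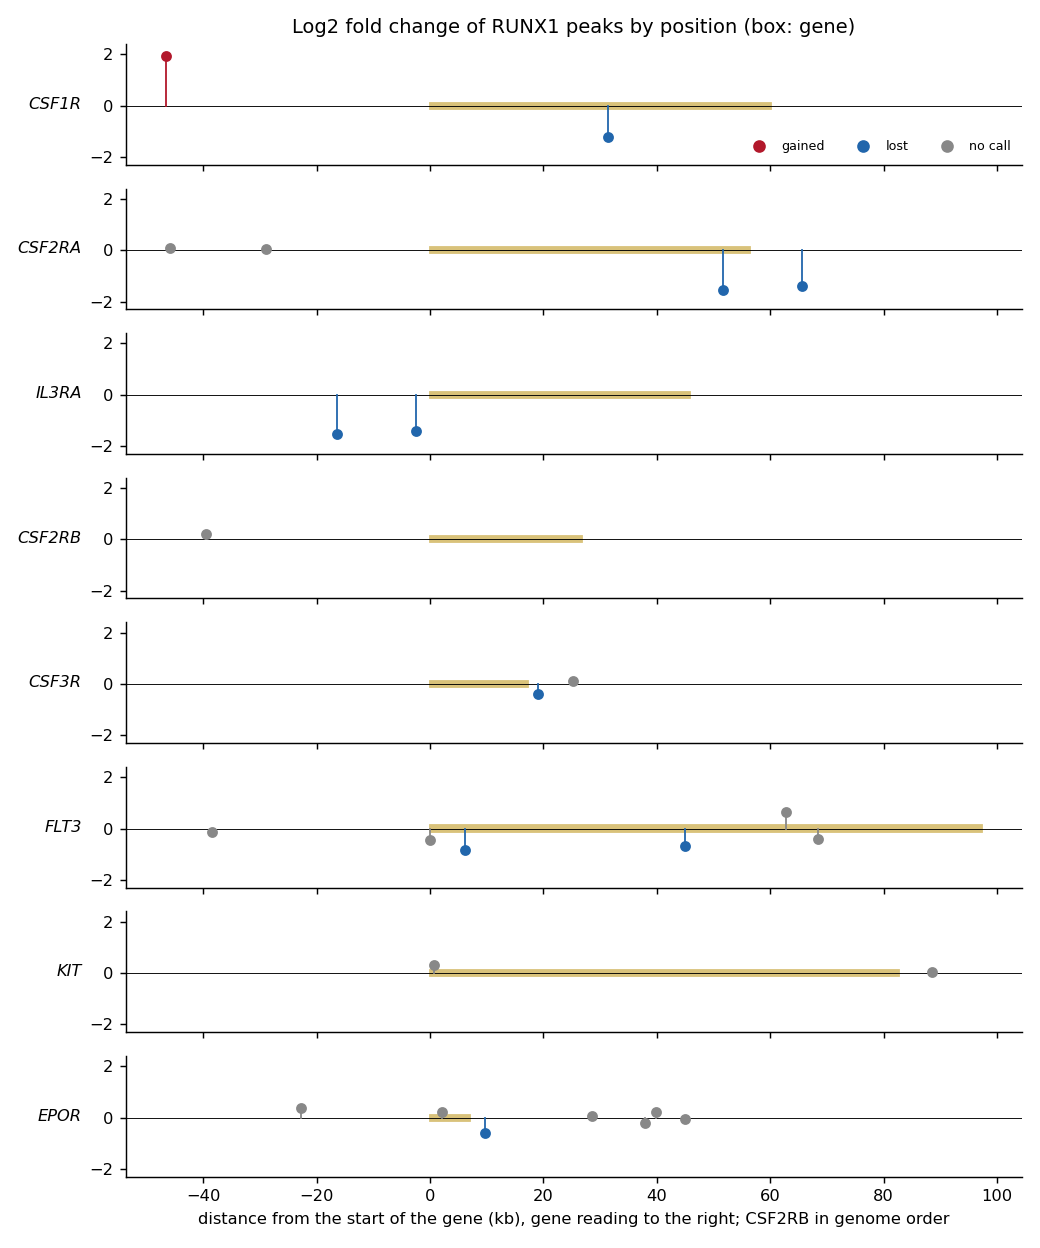
Position of each peak relative to the outermost start of its gene (horizontal axis, kb, with the gene as a box reading to the right, and CSF2RB in genome order) against the log2 fold change, PU.1 knockdown over control, on the vertical axis. The CSF1R row shows a lost peak inside the gene at 31.4 kb and a gained peak at -46.5 kb, and the 2 lost peaks of the CSF2RA row are the same as those of the IL3RA row.

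CSF2RB, the beta chain that both alpha chains need to signal, had 1 peak within 50 kb, and it did not pass the threshold. This peak (chromosome 22, 36873521 to 36874498) lay 39130 bp from CSF2RB and inside NCF4, which encodes a subunit of the phagocyte NADPH oxidase. Its mean was 63.9 ± 9.29 in the control and 75.8 ± 14 in the knockdown, with overlapping ranges (55.8 to 79.8 and 53.9 to 96.0). The log2 fold change was 0.20, with a 95% interval from -0.08 to 0.48 (DESeq2 adjusted p 0.253).

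CSF3R, the G-CSF receptor of neutrophils and their precursors, had 2 peaks nearby and none inside the gene. Both overlapped the neighbour MRPS15, which encodes a mitochondrial ribosomal protein. The nearer one (chromosome 1, 36463561 to 36465074), over the promoter window of MRPS15 and 969 bp from the end of CSF3R, ranged from 51.2 to 70.3 in the control with a median of 58.0 and from 33.5 to 51.0 in the knockdown with a median of 47.0. The knockdown libraries lay just below the control libraries, and the mean fell from 59.1 ± 6.86 to 44.7 ± 6.41 (SD, n = 6 each). The log2 fold change was -0.39 with an SE of 0.16 (DESeq2 adjusted p 0.0366). This call was the weakest but 1 of the 8 by adjusted p and was lost under 10 of 21 alternative settings. At the other CSF3R peak (chromosome 1, 36457677 to 36458614) the log2 fold change was 0.10 (adjusted p 0.529).

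FLT3, the receptor for FLT3 ligand on progenitors and dendritic cell precursors, had 6 peaks, of which 5 overlapped the gene. The peak over its promoter (chromosome 13, 28099960 to 28101390), which contains the sequence printed above, did not pass the threshold. It ranged from 15.2 to 80.6 in the control with a median of 28.4 and from 14 to 40.8 in the knockdown with a median of 22. The control libraries were spread widely because control replicate 1 held 80.6 and the other 5 no more than 31.6. The log2 fold change was -0.43, with a 95% interval from -0.96 to 0.10 (DESeq2 adjusted p 0.198), and without control replicate 1 it was -0.15 (adjusted p 0.694).

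The 2 called FLT3 peaks were both losses inside the gene. The peak 5762 bp downstream of the start (chromosome 13, 28094168 to 28094814) ranged from 14.3 to 29.5 in the control with a median of 25.5 and from 9.22 to 18.6 in the knockdown with a median of 15.0. Control replicate 1, at 14.3, lay among the knockdown libraries, and the other control libraries lay above all of them. The mean was 24 ± 5.18 in the control and 14.4 ± 3.22 in the knockdown, which gave -0.82 ± 0.26 on the log2 scale (SE, DESeq2 adjusted p 0.0046). The other loss (chromosome 13, 28055248 to 28055818), 44758 bp downstream of the start, reached -0.66 on the log2 scale (adjusted p 0.0463) and passed under 7 of 20 alternative settings. The remaining FLT3 peaks had log2 fold changes of -0.40, -0.12 and 0.66, none of them called. Of these, the one at -0.12 lay over the promoter windows of PAN3 and PAN3-AS1 and held the highest count of the 6, and the one at 0.66 rested on 4 to 14 reads per control library.

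KIT, the receptor for stem cell factor, marks early progenitors and mast cells, and neither of its 2 peaks passed the threshold. The peak 184 bp inside its start (chromosome 4, 54658141 to 54659199) averaged 37.7 ± 8.87 in the control and 43.8 ± 9.58 in the knockdown (SD, n = 6 each). The ranges, 27 to 48.4 and 29.8 to 57.9, overlapped over most of their length. The log2 fold change was 0.31 with a 95% interval from -0.06 to 0.67 (DESeq2 adjusted p 0.177). The peak 5083 bp beyond the gene's far end had a log2 fold change of 0.03 (95% interval -0.22 to 0.28, adjusted p 0.867).

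EPOR, the erythropoietin receptor of red cell precursors, had 7 peaks in a gene-dense stretch of chromosome 19, and 1 of them lay in EPOR. That peak (11380801 to 11383640), 674 bp downstream of the start, averaged 110.5 ± 23.4 in the control and 125.8 ± 9.66 in the knockdown (SD, n = 6 each). The ranges, 72.8 to 136.8 and 109.0 to 137.0, overlapped, and the log2 fold change was 0.21 with a 95% interval from -0.03 to 0.44 (DESeq2 adjusted p 0.151). The called loss lay 1499 bp beyond the far end of EPOR, over the promoter window of SWSAP1 (11373552 to 11375708), a gene of homologous recombination. There the control libraries ranged from 65.0 to 96.8 with a median of 82.2 and the knockdown libraries from 41.6 to 60.6 with a median of 54.2. The groups did not overlap, and the mean moved from 80.3 ± 13.0 to 53.0 ± 6.80, a change of -0.58 ± 0.15 on the log2 scale (SE, DESeq2 adjusted p 0.000357). The other 5 peaks, at RAB3D, TMEM205, CCDC159, PLPPR2 and RGL3, had log2 fold changes from -0.20 to 0.36 and were not called.

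The direction of the changes was the same in both batches for all 8 called peaks and for 20 of the 24. Over all peaks it was the same at 21307 of 26642. The 8 peaks were called from both batches together, so their agreement is no separate support. Fitted on batch 1 alone, 2 of the 24 peaks passed the threshold (background 12%), the gained CSF1R peak (log2 fold change 2.28, DESeq2 adjusted p 0.000605) and the peak inside CSF2RA (-1.58, adjusted p 0.0177). Fitted on batch 2 alone, 4 passed (background 25.8%). These were the same 2 (1.64, adjusted p 0.000707, and -1.52, adjusted p 0.000653), the peak inside CSF1R (-1.34, adjusted p 0.000393) and the peak at SWSAP1 near EPOR (-0.52, adjusted p 0.0459). In batch 1 the peak inside CSF1R had a log2 fold change of -1.03 with an adjusted p of 0.0891. The difference between the batches was tested itself, as the product of knockdown and batch, and it passed at none of the 24 peaks in DESeq2 or edgeR, where also none reached an unadjusted p under 0.05. It passed at none of all 26642 peaks in either tool, with 669 (DESeq2) and 1424 (edgeR) at an unadjusted p under 0.05. Within both batches at once, the knockdown libraries lay above all control libraries at 1 of the 24 peaks and below them at 5, against 28.3% of all peaks that stood apart in either direction.

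**Figure D4:**
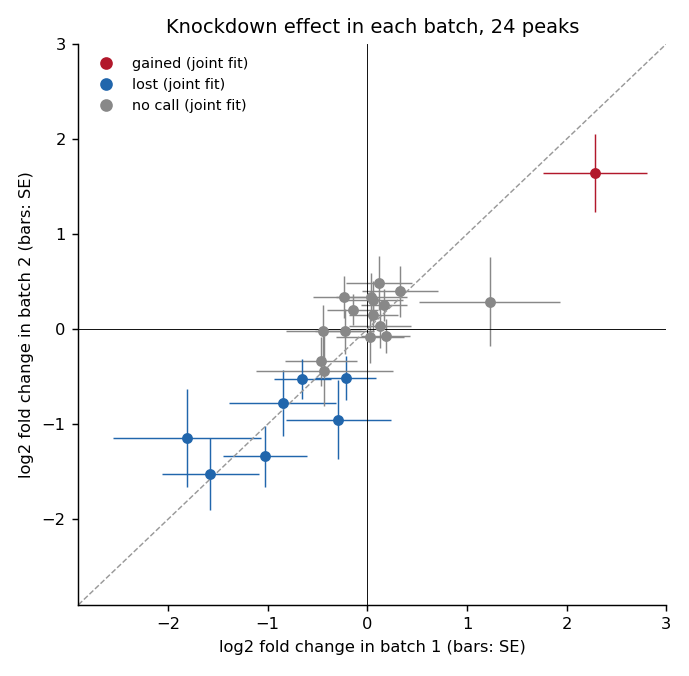
Log2 fold change, PU.1 knockdown over control, of the 24 peaks in batch 1 (horizontal axis) and batch 2 (vertical axis), with SE bars, a dashed line of equal change, and colors for the call in the joint fit. All 8 called peaks lie in the lower left or upper right, and the gained CSF1R peak stands at 2.28 and 1.64.

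A peak that passes the threshold at 1 receptor and not at another does not show that the receptors differ, so the nearest peaks of the receptors were compared directly. For each of the 28 pairs, the log2 ratio of the 2 peaks was taken in every library and compared between knockdown and control by a two-sided exact permutation test that exchanged libraries within batch. The test had 350 arrangements and could not give a p below 0.002857. Of the 28 pairs, 12 differed at an adjusted p under 0.05 (Benjamini-Hochberg over the 28 pairs). How often other pairs of peaks would differ was not tested.

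The change at the nearest CSF1R peak minus that at the other gene's peak, on the log2 scale, was -1.53 for KIT, -1.50 for EPOR, -1.43 for CSF2RB, -1.33 for CSF2RA and -0.84 for CSF3R (exact permutation test, adjusted p 0.0145 for each). The same difference for the peak before IL3RA was -1.73 against KIT, -1.70 against EPOR and -1.53 against CSF2RA (adjusted p 0.0145 for each by the exact permutation test), and -1.63 against CSF2RB (adjusted p 0.02). The peak before IL3RA rested on 6 to 19 reads per control and 2 to 12 per knockdown library, so these ratios are uncertain in size. CSF1R and IL3RA were not told apart, with a difference of 0.20 and a 95% interval from -1.16 to 1.56. The peak next to CSF3R differed by -0.69 from KIT, -0.65 from EPOR and -0.59 from CSF2RB (exact permutation adjusted p 0.0145 for each). That peak lay over the promoter window of MRPS15, and the CSF2RB peak lay inside NCF4. The median log2 fold change over the surrounding 10 Mb was -0.10 at CSF3R, 0.19 at CSF2RB and 0.25 at KIT. The pairs were not recomputed with these medians subtracted, and with them subtracted the peak next to CSF3R was no longer called.

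Among CSF2RA, CSF2RB, KIT and EPOR, whose nearest peaks showed no call, no pair differed, and the differences ran from -0.20 for CSF2RA against KIT (95% interval -0.72 to 0.32) to 0.04 for KIT against EPOR (95% interval -0.39 to 0.46). FLT3 was told apart from none of the other 7 receptors. Its intervals were wide, for example -1.90 to 0.11 for CSF1R against FLT3, where the difference was -0.89 (exact permutation adjusted p 0.101). For CSF2RA the nearest peak was the upstream one, and for FLT3 it was the promoter peak. These comparisons therefore do not hold the lost peaks inside either gene. At the FLT3 promoter peak control replicate 1 held 80.6, and the other control libraries held no more than 31.6.

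**Figure D5:**
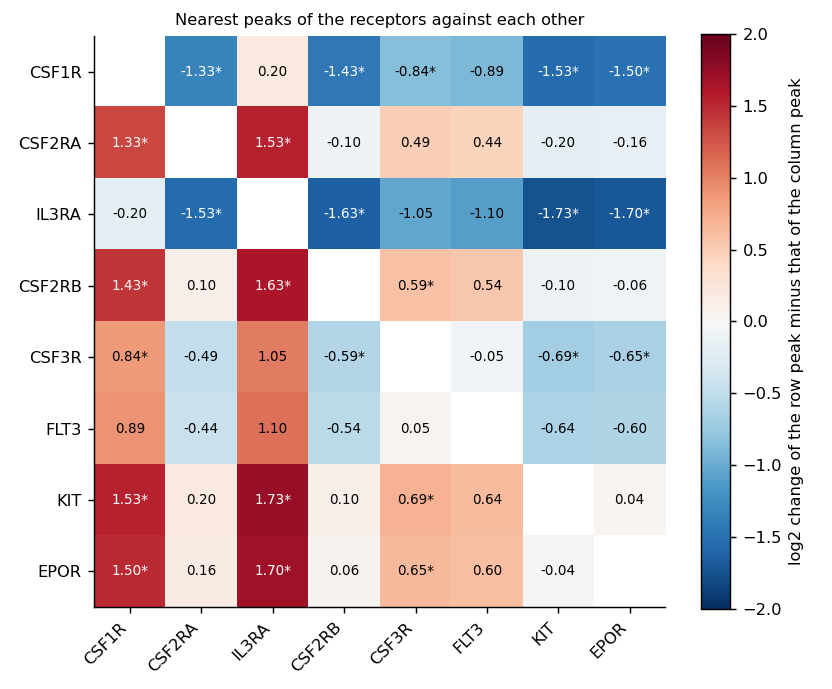
Change in log2 ratio between the nearest peaks of each pair of receptors, PU.1 knockdown minus control, with the row gene over the column gene, blue for negative and red for positive values. Asterisks mark the 12 pairs with an adjusted p under 0.05 in the exact permutation test, and the CSF1R and IL3RA rows hold the lowest values, down to -1.73 for IL3RA against KIT.

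The pattern of the gained CSF1R peak across the 12 libraries was shared by many other peaks. Of 20169 peaks whose normalised counts averaged 20 or more, 435 had a Pearson correlation over 0.9 with it on the log2 scale. The closest were a peak 64469 bp from UACA (chromosome 15, 70588854 to 70590085, r 0.977), one in EMC8 (chromosome 16, 85782369 to 85783058, r 0.974) and one 7553 bp from NTN5 (chromosome 19, 48680570 to 48681632, r 0.972). These coefficients describe 12 libraries that fall into 2 groups and carry no test.

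Other genes of the same signalling chain showed both gains and losses. Around 10 genes for ligands of these and related receptors lay 34 peaks, of which 8 were gained and 8 lost (47.1% called, against 42.0% of all peaks). The gain with the smallest adjusted p lay within 50 kb of CSF1, which encodes M-CSF (chromosome 1, 109904306 to 109904965), where the mean rose from 12 ± 3.76 to 38.5 ± 5.54 (log2 fold change 1.61). The corresponding loss lay near IL5, an eosinophil growth factor gene (chromosome 5, 132524621 to 132525977), with a log2 fold change of -0.95.

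Around 7 of 8 related receptor genes lay 33 peaks, 4 of them also among the 24, with 7 gained and 9 lost (48.5% called). The leading gain was in IL6R, the IL-6 receptor (chromosome 1, 154444464 to 154446113), from 88.1 ± 19.2 to 189.4 ± 24.6 (log2 fold change 1.07).

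Around 24 of 26 genes for kinases, STAT factors, adaptors and inhibitors downstream of the receptors lay 130 peaks, with 24 gained and 35 lost (45.4% called, median log2 fold change -0.18, against -0.02 over all peaks). The leading gain lay near GRB2, an adaptor of receptor tyrosine kinases (chromosome 17, 75435801 to 75436527, log2 fold change 1.61), and the leading loss near FES, a myeloid tyrosine kinase (chromosome 15, 90852581 to 90853582, log2 fold change -1.36). The 5 leading peaks named for these lists moved in the same direction in both batches. They had been picked by the fit of both batches together.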

How the data were processed

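RUNX1 ChIP-seq of THP-1 cells was analysed from the table of raw counts that the authors deposited. Per the study's methods and the submitters' processing notes, reads were aligned with Bowtie2, duplicates were removed, peaks were called with MACS2 per condition and batch, filtered for reproducibility between batches and merged, and reads were counted with featureCounts (versions not given in the sources used here). The deposited table also gives peak width (other information, in bp). The sources name both a mouse and a human build, and 20.4% of the peaks lay on a RefSeq promoter window of GRCh38.p14 as deposited, against 2.18% and 2.29% when moved by 100 kb, so GRCh38 was used. Peaks on X and Y copies of the pseudoautosomal region were kept apart and, as an alternative, summed.

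Differential binding was tested over all peaks with DESeq2 1.42.0 in R 4.3.3 (Wald test, median-of-ratios size factors, batch as covariate, Benjamini-Hochberg adjustment), and within each batch. Peaks were called at an adjusted p under 0.05 and a fold change over 1.1, as in the study. Receptor pairs used log2 (normalised count + 0.5) and a two-sided exact permutation test within batch, with 95% intervals from the spread within groups, in Python 3.11.15 with scipy 1.17.1. Named were each receptor's nearest and highest peaks and its gain and loss with the smallest adjusted p, for the other lists that gain and loss, of which 1 is not reported here. The members and lists were chosen with earlier results of these data known. Alternatives were edgeR 4.0.16 (quasi-likelihood), other scalings, leaving batch out of the model, the replicate number as a block, count filters, windows of 10 kb and 100 kb, stricter thresholds, centring on the 10 Mb around each peak, and leaving out each library. DESeq2 and edgeR were tested on simulated data in which a small share of the peaks changed, all by the same fold. That setting does not cover small changes or changes at a large share of the peaks, as called here. No duplicate was seen among libraries of the same group and batch, where chi-square over degrees of freedom was 1.29 to 2.20. Libraries of different batches or groups were not compared in this way. Peak sequences, exons and introns were not analysed here.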

Additional observations from a re-analysis of the deposited data

Results flagged for a closer look

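Of 48 groups of 6 libraries (24 peaks in control and knockdown), 3 held a library that stood farther from the others than Dixon's 95% critical value allows, where chance alone gives about 1 in 20 groups, or 2.4. At the FLT3 promoter peak (chromosome 13, 28099960 to 28101390), control replicate 1 held a normalised count of 80.57, and the other control libraries held 15.2 to 31.6. At the peak inside CSF1R (chromosome 5, 150081579 to 150082292), knockdown replicate 3 held 8.31 from 7 reads, and the other knockdown libraries held 16.5 to 19.1. The peak was called in every fit of both batches together that kept it, also without this library. At the upstream CSF2RA peak (chromosome X, 1222305 to 1223464), control replicate 3 held 89.87, and the other control libraries held 44.2 to 60.5.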

How the results depend on the processing

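Of the 8 calls, 6 passed in every alternative fit of both batches in which the peak was kept, and all 8 kept their direction. The exceptions were the peak at MRPS15 next to CSF3R (adjusted p 0.0243 to 0.153) and the FLT3 peak at 28055248. With at least 10 counts required in every library, 18 of the 24 peaks were left and 2 were called, 0 gained and 2 lost. That filter removed 5 of the 8 called peaks, and the peak at MRPS15 was kept but no longer passed (adjusted p 0.11). A window of 10 kb held 14 peaks with 0 gains and 7 losses. A window of 100 kb held 39 peaks with 2 gains and 10 losses. A fold change over 2 left 4 calls, 3 of them losses. Leaving out single libraries gave 6 to 8 calls, of which 1 to 2 were gains and 5 to 7 losses, and the added gain appeared without control replicate 4, at the RGL3 peak near EPOR. With edgeR, 9 peaks were called in the joint fit, 5 in batch 1 and 8 in batch 2, against 8, 2 and 4 with DESeq2. Leaving out single libraries gave 0 to 2 calls in batch 1, with none left without knockdown replicate 1 or knockdown replicate 2 (1 knockdown library remained, assumed to vary like the controls), 1 without control replicate 2 or 3, and 3 to 4 in batch 2. With a pseudocount of 5, 12 receptor pairs again passed. The cause of these differences was not tested. The share of all peaks called is not given for these settings, so the counts cannot be set against a background.

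The replicate numbers cannot pair all libraries, since control replicate 3 was in batch 1 and knockdown replicate 3 in batch 2. Deviations of libraries with the same number from the means of their group and batch correlated at -0.101 to 0.0125. With a replicate block in place of batch, which joins libraries of different batches at number 3, 6 peaks were called, 1 gained and 5 lost. Centring on the 10 Mb around each peak gave 6 calls. On the log2 scale it moved the KIT start peak from 0.31 to 0.06 and the CSF2RB peak from 0.20 to 0.01, and turned the second KIT peak from 0.03 to -0.21, the nearest CSF2RA peak from 0.05 to -0.02 and the EPOR peak at RAB3D from -0.04 to 0.01, all uncalled in both. The receptor pairs were not recomputed with centring (window medians -0.10 at CSF3R, 0.19 at CSF2RB and 0.25 at KIT). The CSF1R gain rested on 5 to 12 reads per control library and the peak before IL3RA on 2 to 12 per knockdown library, where smaller changes would not be detectable.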
